A study of Mus musculus with 4 samples.

Results

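The endothelial and mural cell genes described here are 10 genes chosen by name from the 14405 in a deposited matrix in FPKM, a unit that divides each gene's fragments by its length and by the library's depth. They comprise 5 endothelial genes (Pecam1, Kdr, Tek, Egfl7 and Ly6c1), 2 pericyte genes (Rgs5 and Pdgfrb) and 3 smooth muscle genes (Acta2, Tagln and Myh11), and all 10 were present. The study concerned the part of the transcription factor Prdm12 in developing and in mature pain-sensing neurons. RNA came from whole dorsal root ganglia, which hold the cell bodies of sensory neurons, of mice aged 10 weeks and of mixed strain. The 2 mutant samples had the genotype Prdm12-/Fl; AvilCreERT2/+, which is 1 null and 1 floxed allele of Prdm12 with 1 copy of a tamoxifen-inducible Cre driven by the sensory neuron gene Avil. The other 2 samples were labelled wild type. Avil is a gene of sensory neurons, not of vessels. No tamoxifen schedule and no number of animals per sample was stated in the labels. Prdm12 was at 1.05 and 1.50 FPKM in the mutants, against 7.58 and 10.7 FPKM in the wild types, in the order the labels call for, though short of the threshold over all genes (limma adjusted p = 0.180). In the authors' deposited table Prdm12 has q = 0.00742 and a log2 change of -2.84. Avil was at 102 and 164 FPKM in the mutants, against 78.4 and 124 FPKM in the wild types.

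Endothelial cells line blood vessels and mural cells wrap them. Pericytes sit on capillaries, and smooth muscle cells form the contractile coat of arterioles and larger vessels. Endothelial VEGF and angiopoietin receptors sustain the lining, while endothelial PDGF-B holds pericytes at the vessel through their receptor PDGFRB. Ganglia of the dorsal root are densely supplied with capillaries around the neuron bodies.

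Before the values, the coding sequences of 2 of the genes show how far reads could be shared with close copies. Ly6c1 (chr15:75044018-75048830, minus strand, mm10) lies near its copy Ly6c2, a gene of monocytes. Of the 393 coding bases, 384 were identical (97.7%), and 252 of the 795 windows of 50 bases in the Ly6c1 transcript (31.7%) also occurred in a Ly6c2 transcript. Another 40 windows (5.03%) occurred in Ly6a. The first 120 coding bases, from GENCODE M21, are shown with the 6 bases that differ in capitals.
Ly6c1: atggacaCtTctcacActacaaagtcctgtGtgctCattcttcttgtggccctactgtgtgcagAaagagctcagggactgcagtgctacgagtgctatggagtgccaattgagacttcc
Ly6c2: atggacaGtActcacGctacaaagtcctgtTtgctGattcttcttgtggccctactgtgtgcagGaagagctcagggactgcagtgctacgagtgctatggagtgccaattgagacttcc
The smooth muscle actin gene Acta2 (chr19:34241090-34255590, minus strand) was further from its skeletal muscle copy Acta1. They shared 966 of 1131 coding bases (85.4%), and 0 of 1986 windows of 50 bases in Acta2 occurred in Acta1, in the cardiac copy Actc1 or in the enteric smooth muscle copy Actg2. In the cytoplasmic actin gene Actg1, 7 windows occurred. The stretch of 120 bases in which Acta2 and Acta1 were most alike, coding bases 943 to 1062, is shown with the 11 that differ in capitals.
Acta2: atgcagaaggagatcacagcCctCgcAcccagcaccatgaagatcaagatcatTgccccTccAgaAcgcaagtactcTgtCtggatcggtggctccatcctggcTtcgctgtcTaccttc
Acta1: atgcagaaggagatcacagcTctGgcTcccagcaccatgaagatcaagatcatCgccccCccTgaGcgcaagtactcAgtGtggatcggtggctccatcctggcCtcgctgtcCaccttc
Neither the read length nor the mismatches allowed in alignment were stated in the labels, so the Ly6c1 values are uncertain by an unknown amount. A run of 50 bases identical to a listed copy covered little or none of Acta2.

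All 10 genes were detected in each of the 4 samples, with Kdr lowest at 1.85 FPKM in mutant 2. By the mean of the 4 samples, the mural gene Tagln came first at 99.1 FPKM, and its lowest sample (81.0 FPKM) lay above the highest sample of the next gene, Ly6c1 (66.8 FPKM). Ly6c1 at 60.6 FPKM, Egfl7 at 50.3 FPKM, Acta2 at 49.8 FPKM and Rgs5 at 44.9 FPKM followed, and each overlapped its neighbour in this order. Pdgfrb at 16.2 FPKM and Pecam1 at 16.1 FPKM were alike. Below them stood Myh11 at 4.72 FPKM and Tek at 3.35 FPKM, whose samples overlapped, and then Kdr at 2.14 FPKM. The median of all 14040 genes tested was 9.52 FPKM. In whole ganglia, fewer cells of a type and less RNA per cell cannot be told apart.

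**Figure D1:**
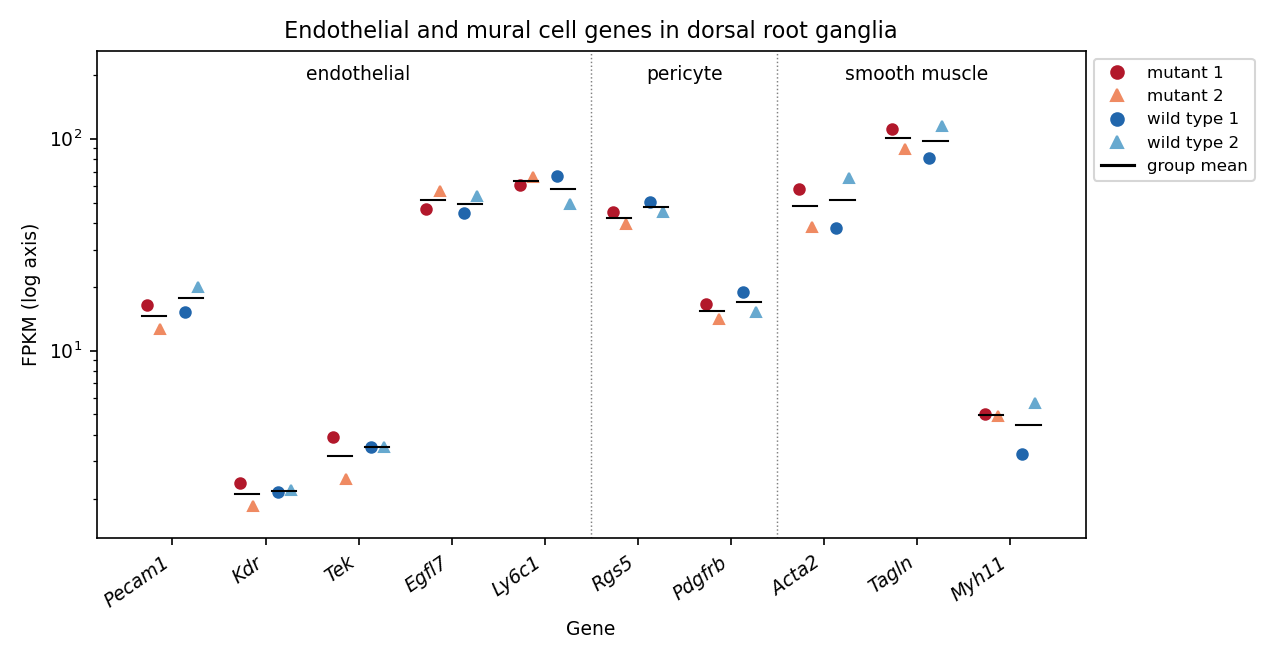
FPKM of the 10 genes on a log axis, with 1 point per sample (2 mutant, 2 wild type) and a bar at each group mean. Tagln is highest, between 81.0 and 115 FPKM, Kdr is lowest, between 1.85 and 2.38 FPKM, and mutant and wild type points interleave for all genes except Rgs5.

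None of the 10 genes passed the test between mutant and wild type ganglia. With limma on log2(FPKM + 1) and adjustment over all 14040 genes tested, 0 of the 10 passed an adjusted p of 0.05, where 0% of all genes did, and each member had an adjusted p of 0.994. At an unadjusted p under 0.05 the count was again 0 of 10, beside 4.36% of all genes (1.35% higher and 3.01% lower in the mutants). The groups did not overlap for 1 of 10 genes, beside 32.1% of all genes. That gene was lower in the mutants, where 19.6% of all genes were, and 0 of 10 were higher, where 12.5% of all genes were. The authors' deposited table of 150 changed genes held 0 of the 10, and 1.03% of the matrix. The median absolute log2 difference was 0.13 over the 10 genes and 0.13 over all genes tested. The 95% intervals of the 10 differences together ran from -0.89 to 0.78 on the log2(FPKM + 1) scale, so each left out a log2 difference of 1 in either direction, but not every smaller one. With 2 samples a group the smallest p of an exact permutation test is 0.333. The labels name no separate animals. The wild types were not repeats of 1 animal, since wild type 2 had 21.1 FPKM of the female-specific RNA Xist and wild type 1 had 0.0185 FPKM. For the mutants this is not known.

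**Figure D2:**
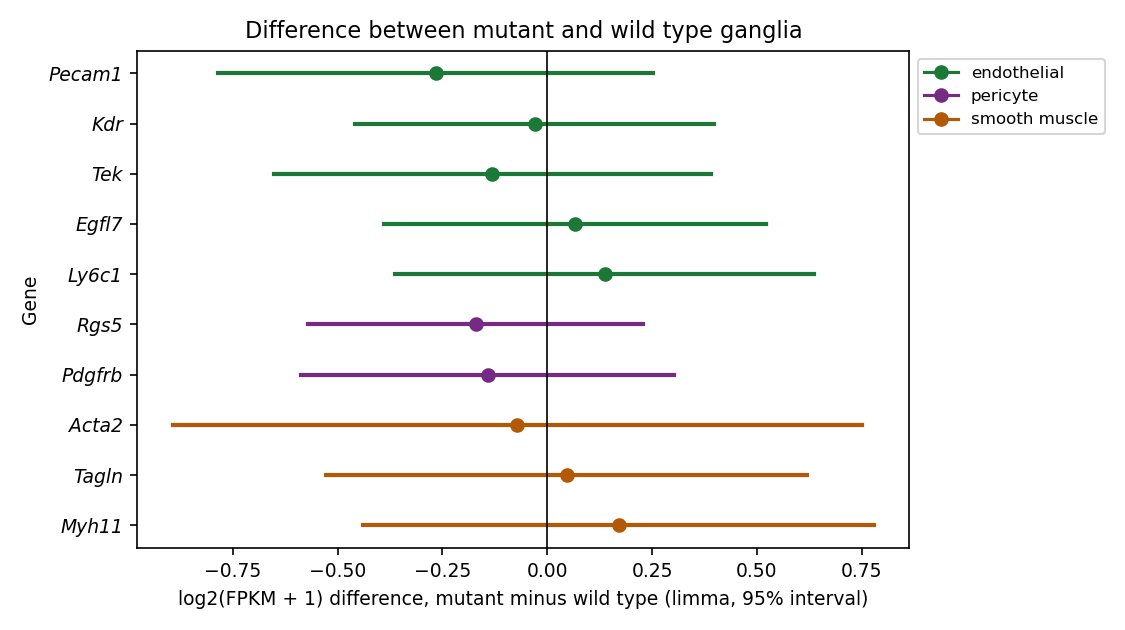
Difference in log2(FPKM + 1), mutant minus wild type, for each of the 10 genes, with the 95% interval from limma (2 samples per group). Each interval crosses 0, from Acta2 with the lowest bound at -0.89 to Myh11 with the highest at 0.78.

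Among the endothelial genes, Pecam1, Kdr and Tek were lowest in mutant 2. Pecam1 (chr11:106654217-106750628), which encodes the junctional adhesion molecule CD31, was at 16.4 and 12.6 FPKM in the mutants, against 15.3 and 20.0 FPKM in the wild types. Wild type 2 was high, mutant 2 was low, and mutant 1 lay between the wild types. The log2 difference was -0.27 ± 0.21 (SE; 95% interval -0.78 to 0.25; limma adjusted p = 0.994). Kdr (chr5:75932827-75978458), the main signalling receptor for VEGF-A, had 2.38 and 1.85 FPKM in the mutants, against 2.15 and 2.19 FPKM in the wild types. Tek (chr4:94739289-94874976) encodes TIE2, the angiopoietin receptor, and had 3.89 and 2.48 FPKM in the mutants, against 3.50 and 3.53 FPKM in the wild types. For each of these receptors the wild types lay close together and the mutants lay on either side of them. The log2 differences were -0.03 for Kdr (interval -0.46 to 0.40) and -0.13 for Tek (interval -0.65 to 0.39). Without mutant 2 both had the opposite sign, at 0.093 for Kdr and 0.12 for Tek.

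Egfl7 and Ly6c1 did not share the low value of mutant 2. Egfl7 (chr2:26580014-26593120) encodes a protein secreted by endothelium and is the host gene of the microRNA gene Mir126a. It was at 46.6 and 56.4 FPKM in the mutants, against 44.7 and 53.6 FPKM in the wild types, a log2 difference of 0.07 (interval -0.39 to 0.52). Mutant 2 was the highest sample and wild type 1 the lowest, and the groups overlapped. Annotated Egfl7 exons share 264 bases with Gm20532 on the same strand and 64 bases with Agpat2 on the other, so part of its value may be shared with them. Ly6c1, which encodes a GPI-anchored surface protein of capillary endothelium and of monocytes, was at 60.2 and 66.1 FPKM in the mutants, against 66.8 and 49.1 FPKM in the wild types. Wild type 2 alone was low, and the log2 difference was 0.14 (interval -0.36 to 0.64). The copy Ly6c2 was at 26.0 and 22.2 FPKM in the mutants, against 15.9 and 21.02 FPKM in the wild types. Those groups did not overlap, but Ly6c2 did not pass (log2 difference 0.38, limma adjusted p = 0.994). Ly6a was at 106 and 74.2 FPKM in the mutants, against 112 and 88.5 FPKM in the wild types, and Ly6e at 159 and 97.4 FPKM, against 120 and 114 FPKM. Of the monocyte and neutrophil markers, which include Ly6c2, 4 of the 7 tested were higher without overlap in the mutants, beside 12.5% of all genes, with a summed level of 2149 to 2842 FPKM in the mutants and 1419 to 2183 FPKM in the wild types. None was at 0, and their part in the Ly6c1 values was not tested.

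The pericyte genes were both highest in wild type 1 and lowest in mutant 2. Rgs5 (chr1:169655501-169695813), an inhibitor of G protein signalling enriched in pericytes, was at 44.9 and 39.6 FPKM in the mutants, against 50.4 and 44.9 FPKM in the wild types. It was the 1 member whose groups did not overlap, and the margin was narrow, since mutant 1 (44.8622 FPKM) and wild type 2 (44.9007 FPKM) nearly coincided. The log2 difference was -0.17 ± 0.16 (SE; 95% interval -0.57 to 0.23; limma adjusted p = 0.994). Pdgfrb, the receptor by which pericytes respond to PDGF-B, was at 16.5 and 14.1 FPKM in the mutants, against 18.9 and 15.2 FPKM in the wild types, a log2 difference of -0.14 (interval -0.59 to 0.30). Its groups overlapped. Fibroblasts also express Pdgfrb, and the fibroblast and meninges markers were lowest in mutant 2 for 10 of 12 genes and highest in wild type 1 for 7. Their summed level was 6455 and 3456 FPKM in the mutants, against 6588 and 5170 FPKM in the wild types, with no marker at 0, and their part in the Pdgfrb values was not tested.

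The smooth muscle genes differed more between the 2 wild types than between the groups. Acta2 was at 58.2 and 38.1 FPKM in the mutants, against 37.7 and 65.0 FPKM in the wild types. Wild type 2 and mutant 1 were high, and mutant 2 and wild type 1 were low. Tagln (chr9:45929619-45936058), which encodes the actin-binding protein SM22 alpha, was at 111 and 89.9 FPKM in the mutants, against 81.0 and 115 FPKM in the wild types, in the same order of samples. Myh11 (chr16:14194535-14291372), the smooth muscle myosin heavy chain and the most specific of these markers, was at 5.05 and 4.92 FPKM in the mutants, against 3.24 and 5.68 FPKM in the wild types. All 3 genes were highest in wild type 2 and lowest in wild type 1. The group differences were -0.07 for Acta2 (interval -0.89 to 0.75), 0.05 for Tagln (interval -0.53 to 0.62) and 0.17 for Myh11 (interval -0.44 to 0.78).

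Wild type 1 minus wild type 2 on log2(FPKM + 1) was -0.77 for Acta2, -0.50 for Tagln and -0.66 for Myh11. The median absolute difference between the wild types was 0.18 over all genes tested. Among 12 other smooth muscle genes, Cnn1 and Actg2 lay in the same order of samples as Acta2 and Tagln. Of the 12, 5 were highest in wild type 2, 4 in mutant 2 and 3 in mutant 1, and 5 were lowest in wild type 1. The share over all genes was not computed. These 12 include Tpm2 and Des, also genes of skeletal muscle. Des, named after its values were seen, was at 4.23 and 53.9 FPKM in the mutants, against 5.88 and 26.6 FPKM in the wild types. The lowest value was also in wild type 1 for 9 of 10 pan-neuronal and 6 of 7 monocyte and neutrophil markers. It was there for 3 of 10 Schwann cell and myelin markers and 0 of 12 fibroblast and meninges markers. The calponin gene Cnn1 was at 8.68 and 6.47 FPKM in the mutants, against 4.93 and 13.1 FPKM in the wild types, and Actg2 at 12.6 and 8.70 FPKM, against 8.14 and 23.3 FPKM. Smtn, which encodes smoothelin, had another order, at 38.0 and 56.8 FPKM in the mutants, against 36.3 and 31.2 FPKM in the wild types. Skeletal muscle genes rose from wild type 1 to wild type 2 as Acta2 did, but the mutants lay in the reverse order. Acta1 was at 32.4 and 1027 FPKM in the mutants, against 76.7 and 585 FPKM in the wild types. Mutant 2 thus had the most Acta1 and nearly the least Acta2. Skeletal muscle markers had a median deviation of -2.50 and 2.40 in the mutants, against -1.39 and 1.48 in the wild types. The part of skeletal muscle in the smooth muscle values was not tested. Actc1 was at 0.476 and 6.48 FPKM in the mutants and at 0.583 and 4.99 FPKM in the wild types. Of the forms found in most cells, Actb was at 1191 and 950.2 FPKM in the mutants, against 1084 and 989.6 FPKM in the wild types, and Actg1 at 1250 and 1370 FPKM, against 1117 and 1202 FPKM, without overlap. Among relatives of the other 2 genes, Myh9 was also lowest in wild type 1 and highest in wild type 2, at 39.7 and 40.3 FPKM in the mutants, against 37.6 and 42.5 FPKM in the wild types. Log2 differences between the groups were 0.0028 for Myh9, -0.15 for Myh10 and 0.31 for Tagln2. Tagln3, the neuronal form, was at 295 and 353 FPKM in the mutants, against 182 and 222 FPKM in the wild types (log2 difference 0.68, limma adjusted p = 0.823). Wild type 2 was also the library with Xist, the RNA of the inactive X chromosome, at 21.1 FPKM, against at most 0.0295 FPKM in the other samples, and the part of sex was not tested. Tagln exons share 1241 bases with the antisense gene Gm48529 and 108 with Pcsk7 on the other strand. No strand setting was stated, so whether reads of such pairs were told apart is not known.

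**Figure D3:**
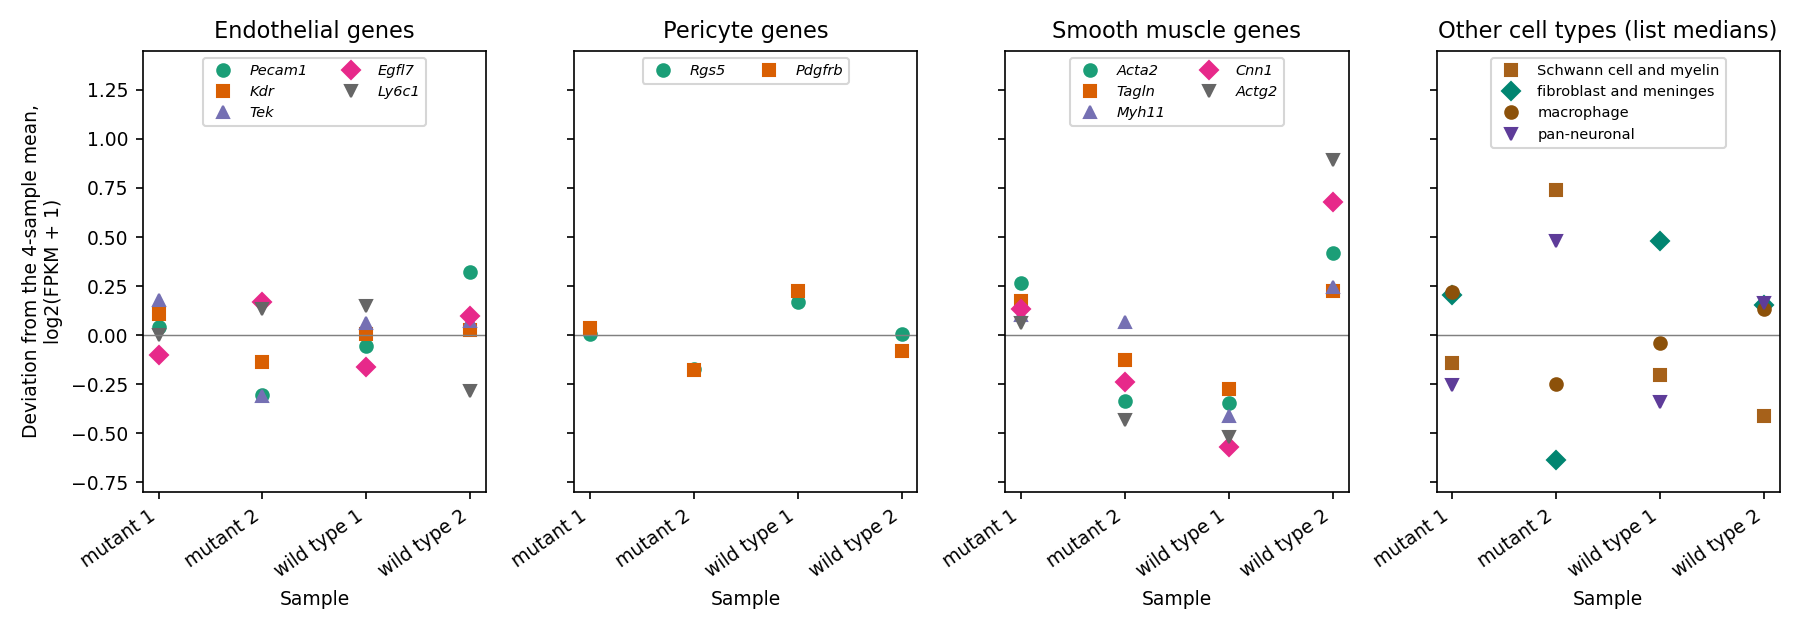
Deviation of each gene from its mean over the 4 samples in log2(FPKM + 1), with the samples along the x axis, for endothelial, pericyte and smooth muscle genes, and the median deviation of 4 marker lists of other cell types. The smooth muscle genes drawn are the 3 members with Cnn1 and Actg2, and they are low in wild type 1 and high in wild type 2. The median deviation of the 3 members is -0.35 and 0.24. Over the 12 other smooth muscle genes, of which only Cnn1 and Actg2 are drawn, it is -0.22 and 0.16. Those 12 include Tpm2 and Des, also genes of skeletal muscle. The pericyte genes are high in wild type 1 (0.19), and Schwann cell markers are high in mutant 2 (0.74).

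Whether the balance of endothelial to mural genes overlapped between the groups depended on how it was formed. The mean log2(FPKM + 1) level of the 5 endothelial genes minus that of the 5 mural genes was -1.05 and -0.93 in the mutants, against -0.85 and -1.10 in the wild types, with overlap. With the median in place of the mean it was -1.40 and -1.52 in the mutants, against -1.25 and -1.13 in the wild types, without overlap. Without Acta2 and Ly6c1, the genes with close copies, the mean was -1.33 and -1.35 in the mutants, against -1.27 and -1.28 in the wild types, again without overlap and by a narrow margin. With a pseudocount of 0.1 FPKM the mean over all members was -1.15 and -1.07 in the mutants, against -0.95 and -1.21 in the wild types, with overlap. The groups also overlapped with the wider lists added. Endothelial minus pericyte level was -0.89 and -0.83 in the mutants, against -1.11 and -0.83 in the wild types. Endothelial minus smooth muscle level was -1.16 and -0.99 in the mutants, against -0.68 and -1.28 in the wild types, with overlap. Within the mural genes, pericyte minus smooth muscle level was -0.27 and -0.16 in the mutants, against 0.43 and -0.45 in the wild types. By this mean of logs, wild type 1 was the sample with a positive value, and the mutants lay between the wild types. In summed FPKM the 3 smooth muscle genes stood above the 2 pericyte genes in each sample, at 122 against 69.3 FPKM in wild type 1. The median log2 difference between the groups was -0.03 for the endothelial genes, -0.16 for the pericyte genes and 0.05 for the smooth muscle genes, beside 0.00 over all genes tested. These values describe lists, and the difference between them was not tested.

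Further vascular genes, from lists written with earlier results of these data known, held no call by limma either. Of them, the authors' deposited table held Vtn, Abcb1a and Angpt1, described below. Of 25 other endothelial genes, 0 passed over all genes tested, 3 were higher and 4 lower without overlap, near the 12.5% and 19.6% of all genes, and the median log2 difference was -0.08. Mutant 2 had the lowest value for 16 of the 25, and without mutant 2 the median was 0.10, while without mutant 1 it was -0.26. The share over all genes lowest in mutant 2 was not computed. Mutant 2 was also lowest for 10 of 12 fibroblast and meninges and 5 of 8 macrophage markers. It was lowest for 0 of 10 Schwann cell and myelin and 0 of 10 pan-neuronal markers. The most abundant of the 25 endothelial genes overlapped between the groups. Ramp2, which encodes a co-receptor for adrenomedullin, was at 213 and 138 FPKM in the mutants, against 154 and 221 FPKM in the wild types, and the progenitor and endothelial surface gene Cd34 was at 104 and 77.0 FPKM, against 93.6 and 91.5 FPKM. Podxl, a sialomucin of the luminal surface, had the lowest difference among them, at 9.53 and 6.11 FPKM in the mutants, against 17.7 and 11.0 FPKM in the wild types (log2 difference -0.79, limma adjusted p = 0.994). Cdh5, the endothelial cadherin, is named after its values were seen. It was at 21.1 and 13.6 FPKM in the mutants, against 27.5 and 26.9 FPKM in the wild types (log2 difference -0.65, interval -1.22 to -0.08, limma adjusted p = 0.994).

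Vessel subtypes had few listed genes and no calls. Among 6 arterial genes, 2 were higher and 2 lower without overlap, beside the same 12.5% and 19.6% of all genes as for the venous and lymphatic lists (median 0.18, and 0.023 without mutant 2). The ephrin gene Efnb2 was at 11.9 and 8.24 FPKM in the mutants, against 22.9 and 14.0 FPKM in the wild types, a log2 difference of -0.79, while the elastic fibre gene Fbln5 had 0.21 and the Notch target gene Hey1 had 0.21. The venous list of 6 genes had 1 higher and 0 lower (median -0.14, and 0.00 without mutant 2). Nr2f2, the venous identity factor, was at 43.7 and 26.7 FPKM in the mutants, against 43.0 and 47.5 FPKM in the wild types. Ackr1, the chemokine receptor of venules, was at 25.5 and 34.9 FPKM, against 23.9 and 21.8 FPKM, and Vcam1 had a log2 difference of -0.37. Of 4 lymphatic genes, 1 was higher and 2 lower (median -0.38, and -0.05 without wild type 2). Pdpn, also a gene of fibroblasts and meninges, was at 51.4 and 45.3 FPKM in the mutants, against 74.9 and 62.5 FPKM in the wild types. The secreted glycoprotein gene Reln had a log2 difference of 0.44 and the hyaluronan receptor gene Lyve1 of -0.26.

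Of the other mural genes, Vtn stood apart. Among 13 other pericyte genes 3 were higher and 1 lower without overlap, beside 12.5% and 19.6% of all genes, with a median of 0.15 (0.28 without wild type 1 and 0.06 without wild type 2). Vtn, which encodes vitronectin and is a marker of pericytes in the brain, was at 129 and 114 FPKM in the mutants, against 297 and 257 FPKM in the wild types. The groups were well apart, with a log2 difference of -1.18 ± 0.17 (SE; 95% interval -1.61 to -0.75), but Vtn missed the threshold over all genes (limma adjusted p = 0.306). In the authors' deposited table Vtn has q = 0.00742 and a log2 change of -1.19. Rgs4 was at 115 and 181 FPKM in the mutants, against 123 and 187 FPKM in the wild types, and Foxs1 at 44.4 and 28.7 FPKM, against 33.4 and 27.6 FPKM. Like Rgs4, the pan-neuronal markers were higher in mutant 2 and wild type 2. Their median deviation was -0.25 and 0.48 in the mutants, against -0.34 and 0.16 in the wild types. The part of neurons in the Rgs4 values was not tested. Of the 12 other smooth muscle genes, 2 were higher and 1 lower, beside the same shares (median 0.08, against -0.15 without wild type 1 and 0.34 without wild type 2). The myosin light chain gene Myl9 was at 123 and 126 FPKM in the mutants, against 104 and 106 FPKM in the wild types, a log2 difference of 0.24. Smtn had 0.45 and the caldesmon gene Cald1 had -0.31. Tpm2, also a skeletal muscle gene, was at 18.2 and 73.0 FPKM in the mutants, against 19.1 and 81.2 FPKM in the wild types.

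The transporters and junction partners of barrier endothelium were mixed. Of 11 genes, 3 were higher and 5 lower without overlap, beside 12.5% and 19.6% of all genes, with a median of -0.12 (-0.20 without mutant 1 and -0.073 without wild type 2). Abcb1a, the drug efflux pump of barrier endothelium, was at 9.93 and 6.62 FPKM in the mutants, against 23.4 and 18.5 FPKM in the wild types. Its groups did not overlap, and the log2 difference was -1.26 ± 0.23 (SE; 95% interval -1.83 to -0.68; limma adjusted p = 0.481). In the authors' deposited table Abcb1a has q = 0.00742 and a log2 change of -1.34. The 3 most abundant genes of the list overlapped between the groups, with log2 differences of 0.01 for Bsg, -0.12 for Itm2a and 0.44 for Spock2.

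Among ligands, Angpt1 was lower in both mutants. It encodes angiopoietin-1, the activating ligand of the receptor encoded by Tek, and was at 4.43 and 2.53 FPKM in the mutants, against 7.91 and 6.59 FPKM in the wild types. The log2 difference was -0.91 ± 0.24 (SE; 95% interval -1.52 to -0.30), and Angpt1 missed the threshold over all genes (limma adjusted p = 0.797). Without mutant 2 the difference was -0.60. In the authors' deposited table Angpt1 has q = 0.0355 and a log2 change of -1.06. Angpt2, the context-dependent antagonist, was at 8.23 and 8.67 FPKM in the mutants, against 5.96 and 11.4 FPKM in the wild types, which lay on either side of the mutants. Vegfa, the ligand of Kdr, was at 6.13 and 8.81 FPKM in the mutants, against 7.28 and 7.07 FPKM in the wild types. Pdgfb, the ligand of Pdgfrb, was at 5.18 and 5.04 FPKM, against 4.64 and 4.10 FPKM (log2 difference 0.19). Over the 10 ligands tested, 2 were higher and 3 lower without overlap, beside 12.5% and 19.6% of all genes, and the median was 0.00 (-0.084 without mutant 2).

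None of the receptors passed. Of the 14 tested, which include Kdr, Tek and Pdgfrb, 2 were higher and 1 lower without overlap, beside the same shares, with a median of -0.10 (-0.25 without mutant 1 and 0.065 without mutant 2). Mutant 2 had the lowest value for 11 of the 14, with no share over all genes computed. Flt1, the decoy receptor for VEGF-A, was at 3.72 and 2.05 FPKM in the mutants, against 4.35 and 4.01 FPKM in the wild types (log2 difference -0.45, limma adjusted p = 0.994). Tie1, the partner of TIE2, was at 4.90 and 3.90 FPKM, against 4.72 and 4.63 FPKM.

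**Figure D4:**
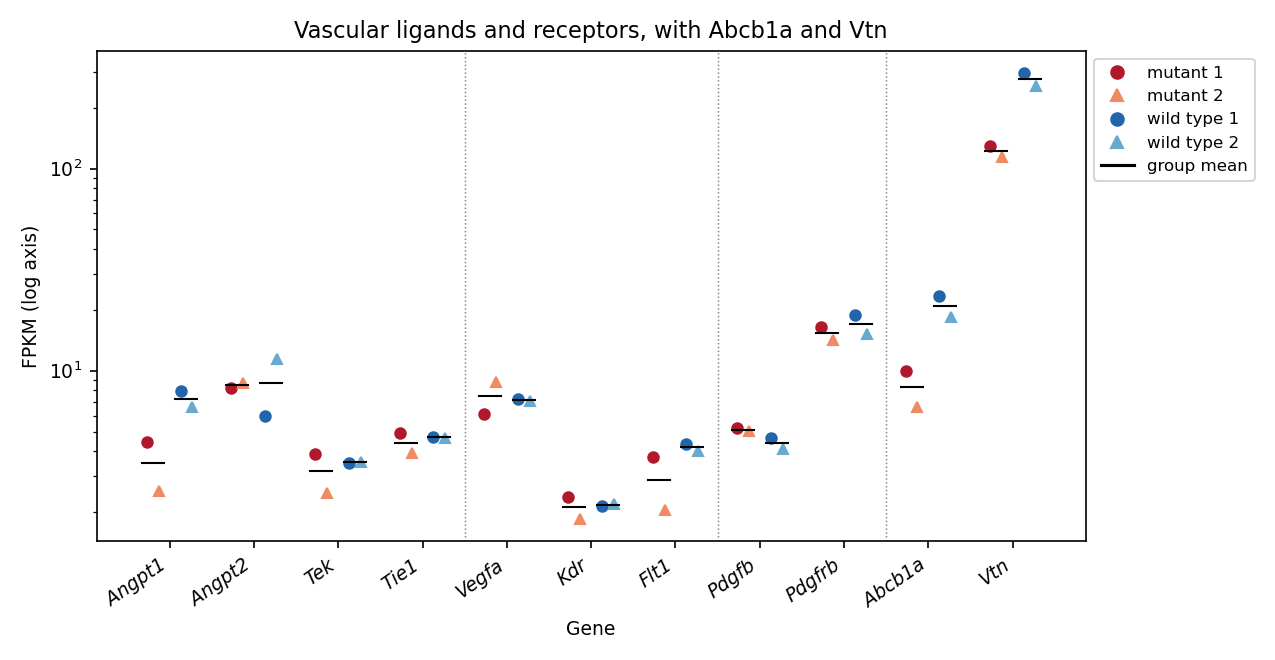
FPKM on a log axis for 9 vascular ligands and receptors (Kdr, Tek, Pdgfrb and their partners) and for Abcb1a and Vtn, with 1 point per sample and a bar at each group mean. Angpt1, Flt1, Abcb1a and Vtn are lower in both mutants (Vtn at 129 and 114 FPKM, against 297 and 257 FPKM in the wild types), Pdgfb is higher in both, and the other genes drawn overlap.

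Other cell types differed between the samples. Schwann cell and myelin markers were highest in mutant 2 for 10 of 10 genes. Their summed level was 10156 and 21162 FPKM in the mutants, against 10286 and 8212 FPKM in the wild types (Pmp22 0.63 in log2 difference). Of these 10, 6 were higher and 0 lower without overlap in the mutants, beside 12.5% and 19.6% of all genes. Summed skeletal muscle markers were at 136 and 4995 FPKM in the mutants, against 305 and 2433 FPKM in the wild types (Acta1 -0.20, Tnnt3 -0.02). Adipocyte markers stood at 288 and 2411 FPKM, against 496 and 802 FPKM (Fabp4 0.38, Cfd 0.49). Erythrocyte markers, which come from blood, were at 6371 and 6500 FPKM in the mutants, against 3398 and 3189 FPKM in the wild types (Hba-a1 1.06, Hbb-b1 0.90). Of the 5 tested, 5 were higher without overlap, beside 12.5% of all genes, and 0 passed over all genes tested. Fibroblast and meninges markers had a median of -0.38, with 4 of 12 lower without overlap, beside 19.6% of all genes (Dcn -0.36, Col1a2 -0.06). These 4, named after their values were seen, were Igf2 (-1.50), Slc6a13 (-1.28), Foxc1 (-0.92) and Foxc2 (-0.89), beside the lower Vtn, Abcb1a and Angpt1. Of the 12, 2 had a positive difference. The authors' deposited table held Igf2 and Slc6a13. The remaining lists had medians of -0.04 for macrophages (Lyz2 -0.09, Csf1r 0.02), 0.52 for monocytes and neutrophils (S100a8 0.44, S100a9 0.53) and 0.26 for neurons (Uchl1 0.17, Tubb3 0.34). The part of these cell types in the vascular values was not tested.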

How the data were processed

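Bulk RNA of dorsal root ganglia was sequenced in 2 mutant and 2 wild type samples, grouped by their titles. The authors deposited FPKM values for 14405 genes, each at 1 FPKM or more in some sample, and a list of 150 genes with group FPKM, log2 fold changes, p-values and q-values laid out as Cuffdiff output, per the file headers. The submitters' processing notes name CASAVA, TopHat2 2.1.2, Cufflinks 2.2.1 and mm10, without settings. Without counts the depth is unknown, and intervals cover the spread between samples only. Summed FPKM came to 629900 and 686830 in the mutants and 620018 and 674082 in the wild types.

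The test was limma 3.58.1 (R 4.3.3) on log2(FPKM + 1), mutant minus wild type, with a variance prior that follows expression, over the 14040 genes whose mean reached 1 FPKM in the mutants or the wild types, adjusted by Benjamini and Hochberg (threshold 0.05). It had 2 residual degrees of freedom and 3.44 from the prior. The scale understates changes of low genes. The members and lists were chosen with earlier results of these data known. Genes named are all members, their listed copies and partner ligands and receptors, the 3 most abundant of each vascular list plus its largest difference without overlap, and the 2 most abundant of each other list, except 1 gene that is not reported here. Genes marked as named after their values were seen are further to these. Locations and coding sequences are from GENCODE M21 (GRCm38, the same assembly as mm10). Windows were compared with all transcripts of each copy. For counts of genes highest or lowest in a given sample, the share over all genes was not computed. Alternatives were another pseudocount, filter, scaling and prior, a replicate block, and each sample left out.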

Additional observations from a re-analysis of the deposited data

How the results depend on the processing

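None of the 10 genes passed under any of the 11 alternatives run (smallest adjusted p 0.471), and 0 of 10 had an unadjusted p under 0.05 in each, where Kdr, Tek and Myh11 were left out by a minimum of 5 FPKM. Over all genes, 0 passed with limma (612 at an unadjusted p under 0.05, against 1474 with a replicate block and 440 to 1807 with a sample left out), as with a pseudocount of 0.1 FPKM, no filter, a minimum of 5 FPKM, rescaling by median ratios, quantile normalization and a constant variance prior. With each sample left out the count ran from 0 to 5, and the 5, without wild type 1, were Csrp3, Snurf, Xist, Ddx3y and Eif2s3y (chosen for naming after seeing them). The samples share only a replicate number. With it as a replicate block 61 genes passed, Prdm12 (adjusted p = 0.0250), Vtn (adjusted p = 0.0315) and Abcb1a (adjusted p = 0.0346) among them, and 0 of the 10 members. Deviations of same-numbered samples had r = 0.48 across genes, which are not independent replicates, over 2 pairs.

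With each sample left out, log2 differences ran from -0.45 to -0.08 for Pecam1 and from -0.26 to -0.08 for Rgs5. The sign changed for Kdr (-0.15 to 0.093) and Tek (-0.38 to 0.12) without mutant 2, for Egfl7 (-0.069 to 0.20) without mutant 2 or wild type 1 (-0.062), and for Ly6c1 (-0.081 to 0.36) without wild type 2. It also changed for Pdgfrb (-0.29 to 0.010) and Myh11 (-0.16 to 0.50) without wild type 1, for Acta2 (-0.46 to 0.31) without wild type 2 or mutant 2 (0.23), and for Tagln (-0.20 to 0.30) without wild type 1 or mutant 1 (-0.10). Such fits leave 1 sample in a group, which is assumed to vary like the other group. The endothelial median ran from -0.15 to 0.071, and was 0.066 with a minimum of 5 FPKM, which left 3 of its 5 genes. With the wider lists added, endothelial minus mural level was -0.15 and -0.51 in the mutants and -0.10 and -0.32 in the wild types, with overlap. Leaving out samples for Vtn, Abcb1a, Angpt1 and the vascular lists was chosen after seeing the data. With 2 samples a group, changes inside the intervals cannot be told from none.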
